A study of Mus musculus with 15 samples.

Results

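Igf2, H19, Dlk1, Meg3, Peg3, Mest, Plagl1, Grb10, Cdkn1c and Kcnq1ot1 are imprinted growth genes of the mouse. The H3K27ac peaks around them were described in 1 tumor library from a mouse model of fusion-positive rhabdomyosarcoma (FP-RMS). A peak belonged to a gene when it overlapped the gene's RefSeq span or the 50 kb on either side. Peaks within 2 kb of a start site were counted to the promoter, other peaks in the span to the gene body and the rest to the flank. Igf2 with H19 and Dlk1 with Meg3 were each taken as 1 joint domain, which gave 8 loci. The windows held 34 of the 122375 peaks of the list, of which 5 (14.7%) were at a member promoter, 8 in a member gene body and 21 in a flank.

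The series holds 15 CUT&RUN libraries from tumors of 2 mouse models, named MCP and TCP. MCP mice carry Myf6-Cre, which acts in myogenic cells, and TCP mice carry Tek-Cre, which acts in endothelial cells. All groups, IgG controls included, share the floxed tumor suppressor Cdkn2a(Flox/Flox), the PAX3-FOXO1 (P3F) allele written Pax(3P3F/P3F) and the fluorescent reporter R26-tdTom. There are 6 H3K27ac and 3 IgG libraries of MCP and 3 of each antibody of TCP, and the peak list analysed here belongs to MCP H3K27ac replicate 5. CUT&RUN uses an antibody to tether a nuclease that releases nearby DNA, and H3K27ac is a histone acetylation found at active promoters and enhancers. The tumors were dissociated and sorted for live cells, and no animal age is given in the labels. With 1 library there is no replicate, no test of any difference and no comparison of MCP with TCP, and all intervals below cover counting error only.

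An imprinted gene is transcribed mainly from the copy inherited from 1 parent. Differentially methylated regions, set in the egg or the sperm and kept by factors such as ZFP57 with TRIM28, decide which copy is used, and neighbouring imprinted genes often share 1 such control region. Many imprinted genes act on fetal and placental growth. In muscle and in rhabdomyosarcoma the IGF2 growth factor is the best known of them, and loss of imprinting at Igf2 and H19 is a recurrent feature of embryonal rhabdomyosarcoma in people. The peak list does not tell the parental copies apart.

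The sequences of the 5 promoter peaks are printed to show how short they are and how their CpG content differs. They are taken from mm10 (GRCm38) and run in the direction of transcription of the gene, with each CG in capitals.
Meg3 promoter peak, chr12:109542744-109542825, plus strand: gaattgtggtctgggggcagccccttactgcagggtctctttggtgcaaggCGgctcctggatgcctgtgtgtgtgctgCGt
Peg3 promoter peak, chr7:6730916-6731055, minus strand: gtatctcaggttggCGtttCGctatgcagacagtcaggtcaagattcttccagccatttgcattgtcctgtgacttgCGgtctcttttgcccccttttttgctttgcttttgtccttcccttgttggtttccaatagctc
Mest promoter peak, chr6:30738607-30738766, plus strand: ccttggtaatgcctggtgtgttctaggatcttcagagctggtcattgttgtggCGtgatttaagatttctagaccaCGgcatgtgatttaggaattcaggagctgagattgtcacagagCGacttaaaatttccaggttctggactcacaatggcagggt
Kcnq1ot1 promoter peak, chr7:143295252-143295385, minus strand: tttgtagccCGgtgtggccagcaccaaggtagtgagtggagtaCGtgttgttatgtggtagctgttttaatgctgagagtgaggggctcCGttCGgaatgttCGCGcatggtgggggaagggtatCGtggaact
Kcnq1ot1 promoter peak nearer the start, chr7:143295587-143295676, minus strand: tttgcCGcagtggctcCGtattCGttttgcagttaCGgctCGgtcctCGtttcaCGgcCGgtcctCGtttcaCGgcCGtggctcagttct
The Meg3 peak has 2 CpG in 82 bases, the Peg3 peak 3 in 140 and the Mest peak 3 in 160. The Kcnq1ot1 peaks have 7 CpG in 134 bases and 11 in 90.

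The next pair sets a member with a promoter peak beside a member without any peak in its span. They are RefSeq promoter windows (GRCm38.p6) from 250 bases before to 50 bases after a start site, again with CG in capitals.
Mest, chr6:30737800-30738099, plus strand: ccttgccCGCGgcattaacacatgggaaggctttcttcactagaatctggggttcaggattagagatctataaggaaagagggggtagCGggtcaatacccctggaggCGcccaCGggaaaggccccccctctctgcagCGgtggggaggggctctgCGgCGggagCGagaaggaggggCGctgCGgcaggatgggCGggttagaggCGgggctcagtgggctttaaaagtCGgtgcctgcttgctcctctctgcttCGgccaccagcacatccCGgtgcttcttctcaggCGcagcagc
Grb10, chr11:12037371-12037670, minus strand: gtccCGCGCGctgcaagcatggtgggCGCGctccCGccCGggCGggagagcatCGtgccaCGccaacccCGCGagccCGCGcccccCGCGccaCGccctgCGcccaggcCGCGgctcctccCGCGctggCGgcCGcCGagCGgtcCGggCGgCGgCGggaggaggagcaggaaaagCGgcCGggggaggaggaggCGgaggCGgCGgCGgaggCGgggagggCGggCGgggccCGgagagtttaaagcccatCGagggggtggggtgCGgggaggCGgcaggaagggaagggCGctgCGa
The Mest window holds 17 CpG and the Grb10 window 45.

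H3K27ac peaks were found at the promoters of 4 of the 10 members, Peg3, Mest, Meg3 and Kcnq1ot1. Among the protein-coding members 2 of 7 had a promoter peak, and 45.6% of all 21000 protein-coding genes did. Among the noncoding members 2 of 3 had one, beside 30.2% of all 3318 lncRNA genes. By the allele known to be expressed, these were 3 of the 6 paternally expressed members (Peg3, Mest and Kcnq1ot1) and 1 of the 4 maternally expressed ones (Meg3). Grb10 was counted by its maternal expression outside neurons. Both groups are small and mix protein-coding and lncRNA genes, whose shares over all genes are 45.6% and 30.2%. A difference by parental copy was not tested and is not read from these counts. The strongest promoter peaks of the 4 genes had fold enrichments over the IgG background of 4.03 to 6.08. The caller adds 1 to the scaled fragments at the summit and 1 to the background before it divides them, so that each fold is below the plain ratio. The median of the same value over all genes with a promoter peak was 7.24. With peaks of a −log10 q of at least 5 alone, Meg3 and Mest kept a promoter peak. Of all protein-coding genes 37.9% kept one, and of all lncRNA genes 24.0%. In the strongest 25% of the peaks no member had one, beside 29.3% of all protein-coding and 18.1% of all lncRNA genes.

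The windows of the members were thinly covered. They span 1.29 Mb and held 26.4 peaks per Mb, whereas the genome held 44.9. In 7 of the 8 loci the density was below that of the locus' own chromosome, though Kcnq1ot1 (0.987 times) and Dlk1-Meg3 (0.902 times) were close to it. In the Mest locus it was 1.90 times that of chromosome 6. Low gene windows are common: 52.1% of chromosome 7 genes had a density no higher than that of Kcnq1ot1. Of chromosome 6 genes, 62.7% had one no higher than that of Mest. For members on other chromosomes this share was 16.3% for Grb10, 21.3% for Plagl1, 29.6% for Dlk1 and 45.0% for Meg3. On chromosome 7 it was 32.9% for Igf2 and Cdkn1c, 35.9% for H19 and 38.3% for Peg3. Without the Mest locus the windows held 21 peaks, or 17.9 per Mb. Counted gene by gene, Igf2, Plagl1 and Cdkn1c had no peak, H19 had 1, Dlk1, Peg3 and Grb10 had 2 each, Meg3 6, Kcnq1ot1 8 and Mest 13. Over 24318 genes the median was 7 peaks (quartiles 1 and 16), and 23.1% of genes had none.

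**Figure D1:**
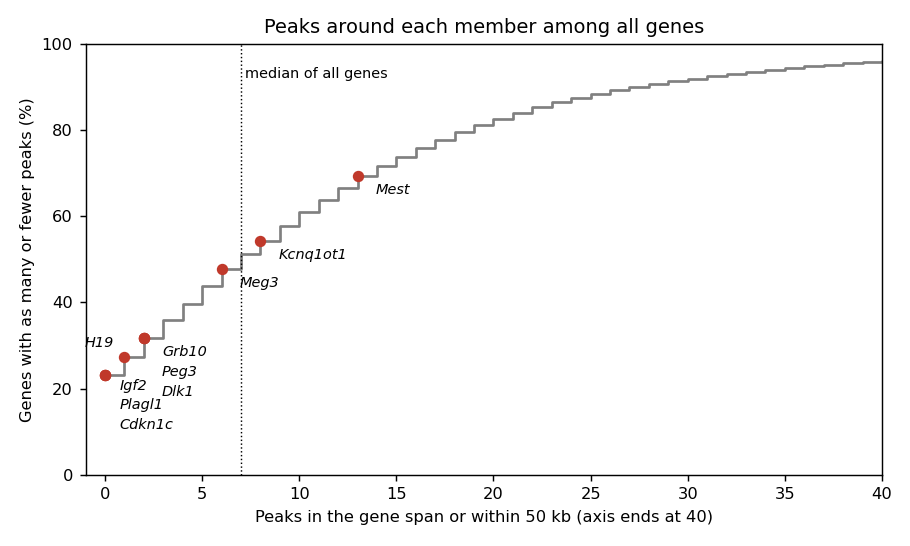
The grey line gives the share of all genes (vertical axis, %) with as many or fewer peaks in their span and the 50 kb on either side (horizontal axis, number of peaks, up to 40), and each point is a member. Only Mest (13 peaks) and Kcnq1ot1 (8) lie to the right of the median of 7, and Igf2, Plagl1 and Cdkn1c lie at 0.

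The peaks were also modest in height. Their median fold enrichment was 4.79, against 5.22 in the whole list, and 15 of the 34 were above the list's median. The median width was 137 bp against 163 bp in the list. From 9 to 43 fragments lay over the summits, with a median of 12, and 13 over all peaks. At the lowest background, 1.05 fragments, the smallest peak anywhere in the list had 7 fragments, so a summit with fewer could not appear as a peak. A region without a peak may therefore hold acetylation that was not detectable at this depth. The numbers in the peak names ran on without a break through all 8 loci and the peakless stretches named below.

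**Figure D2:**
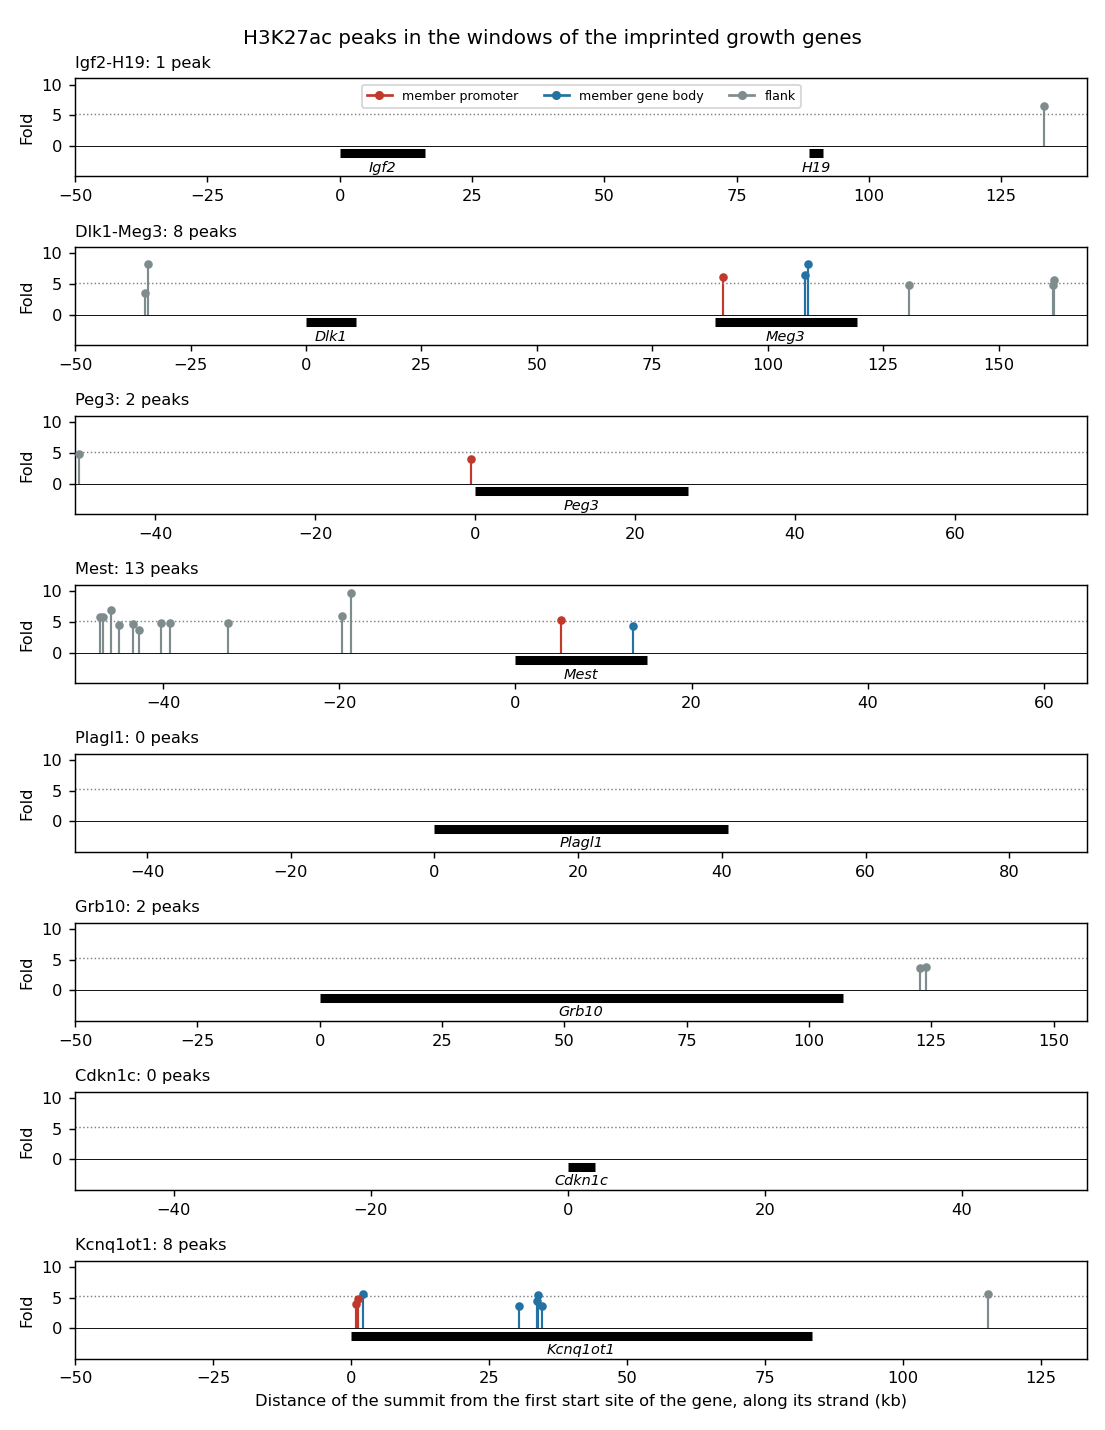
Each panel is 1 locus, with peak summits placed by their distance in kb from the first start site of the leading gene (Igf2 or Dlk1 in the joint domains) along its strand, the fold enrichment as height, black bars for the gene spans and a dotted line at the list's median of 5.22. The Plagl1 and Cdkn1c panels are empty, the Igf2-H19 panel has 1 peak beyond H19, and 11 of the 13 Mest peaks lie upstream of the gene.

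Igf2 encodes insulin-like growth factor 2, a fetal growth factor that signals through the IGF1 receptor, and no peak was found in its span (chr7:142650768-142666816) or within 50 kb. The nearest summit to any of its 4 start sites was 124 kb away. H19, the noncoding RNA that shares an imprinting control region and enhancers with Igf2, had no peak in its span (chr7:142575530-142578146) either. The only peak of the joint domain lay 44.3 kb beyond the H19 start, in an intron and at the promoter of Mrpl23, a mitochondrial ribosomal protein gene. It had a fold enrichment of 6.51 (95% counting interval 3.78 to 10.6) from 14 fragments, higher than 74.9% of all peaks. Its 282 bases follow, on the plus strand, with CG in capitals, because they are the whole H3K27ac signal called in this domain.
Mrpl23 promoter peak, chr7:142533601-142533882: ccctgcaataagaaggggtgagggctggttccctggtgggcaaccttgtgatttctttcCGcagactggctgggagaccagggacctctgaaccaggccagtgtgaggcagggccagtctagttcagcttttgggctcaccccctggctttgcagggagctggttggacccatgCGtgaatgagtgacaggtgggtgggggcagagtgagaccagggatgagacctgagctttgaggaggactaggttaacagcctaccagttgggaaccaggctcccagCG

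The domain held 5.23 peaks per Mb, 0.118 times the density of chromosome 7. By gene, 32.9% of chromosome 7 genes had no peak in their window, as Igf2 did. A density no higher than that of H19 was found for 35.9%. From the Mrpl23 peak a stretch of 522 kb without a peak ran over H19, Igf2, Ins2 (insulin), Th (tyrosine hydroxylase) and Ascl2 (a trophoblast transcription factor). Of 122354 distances between neighbouring peaks, 99.4% were shorter. The median distance was 0.457 kb, and the longest stretch touching the window was taken, so a high share was likely beforehand. The longest stretch of the densely covered Mest locus (65.6 kb) exceeded 94.7% of the distances, and that of Kcnq1ot1 (80.7 kb) 95.6%. The share alone is therefore not read as unusual emptiness. Ins2, Igf2os (antisense to Igf2) and Nctc1 (a noncoding transcript beyond H19) had no promoter peak. The nearest peaks outside the window were 75.8 kb from the H19 span on one side (fold 4.36) and 389 kb from the Igf2 span on the other (fold 3.93).

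Dlk1 encodes a transmembrane ligand of the Delta family that holds back differentiation of fat precursors. Its span (chr12:109452485-109463336) and both of its promoters had no peak. The nearest summit lay 34.6 kb upstream, in a peak at chr12:109418223-109418631 in no annotated gene, with a fold enrichment of 8.24 (5.08 to 12.7) from 18 fragments. It was the strongest of the domain and higher than 89.4% of all peaks. A weaker peak (fold 3.58, 1.95 to 6.14) stood beside it. From there 124 kb without a peak ran through Dlk1 and the whole intergenic region to Meg3.

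Meg3, the maternally expressed noncoding RNA of the same domain, carried 3 peaks in its span (chr12:109540996-109571729). The promoter peak lay in an intron, 1766 bp downstream of the first start site, with a fold enrichment of 6.08 (3.47 to 10.1) from 13 fragments, and it fell outside a promoter of 1 kb. A pair of peaks lay in exon sequence 15.2 and 15.9 kb from the nearest start, at chr12:109560467-109560940 (fold 6.51, 3.78 to 10.6) and chr12:109561032-109561347 (fold 8.21, 5.12 to 12.6, 19 fragments). The signal called at Meg3 was thus higher in the gene body than at the promoter by value, though the intervals overlap. Beyond Meg3, a peak of fold 4.79 lay in an intron of Rtl1, the retrotransposon-derived placental gene on the opposite strand, and peaks of fold 4.79 and 5.65 in an intron of the noncoding RNA Rian. The promoters of Rtl1 and Rian had no peak. The Rian peaks opened a stretch of 12 peaks over 16.3 kb, most of it outside the window.

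Peg3 encodes a zinc finger protein with roles in growth, maternal behaviour and muscle stem cells. It lies head to head with Usp29, a deubiquitinase gene. The promoter peak was 517 bp upstream of the Peg3 start, within an exon of Usp29 and within 2 kb of the Usp29 start, so that both promoters share it. Its fold enrichment was 4.03 (2.09 to 7.24) from 9 fragments, the fewest in the windows, and only 18.4% of all peaks were lower. A Grb10 peak also gave 9 fragments, as 1 of 2 solutions. No peak lay in the Peg3 span (chr7:6703892-6730462) or in the 50 kb beyond its 3′ end, and a stretch of 367 kb without a peak ended at the promoter peak. This stretch holds Peg3, the zinc finger gene Zim1 and a cluster of olfactory receptor genes. The other peak of the window (fold 4.79, 2.55 to 8.40) was in an intron of Usp29, 49.4 kb from Peg3, and the first peak beyond the limit was at 51.0 kb (fold 6.51).

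Mest encodes a protein of the hydrolase fold family that is expressed from the paternal copy in mesoderm. Its 13 peaks made it the most densely covered member, with 113 peaks per Mb against 59.4 on chromosome 6. The promoter peak lay 637 bp downstream of the nearest of 3 start sites, in an intron, with a fold enrichment of 5.33 (3.33 to 8.16) from 19 fragments. With the first start site of the span alone it counted as gene body. A further body peak had a fold of 4.38 (2.33 to 7.68).

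The other 11 peaks of the Mest locus lay upstream, and 9 of them were in introns of Cep41, a gene for a centrosomal protein that is transcribed away from Mest. Both peaks at a Cep41 promoter were weak (fold 4.76 and 4.79). The strongest peak of all 34 was at chr6:30714421-30715542, in no annotated gene. Its summit was 18.6 kb upstream of the first Mest start but nearer to the Cep41 span (chr6:30653457-30710517). Which gene the peak acts on was not tested. This strongest peak had a fold enrichment of 9.66 (7.06 to 12.9) from 43 fragments, was 1122 bp wide and was higher than 94.8% of all peaks. Next to it a peak of 978 bp reached 6.00 (4.01 to 8.67), and the widest peak of the windows, 1356 bp with a fold of 6.88 (4.73 to 9.72), lay in Cep41. Joined across gaps no longer than the distance customary in super-enhancer calling, the 11 upstream peaks were part of a stretch of 19 peaks over 66.2 kb. The other peaks of this stretch lay outside the window. With them included, the stretch ranked 1488 of 22564 by fold times width, among the top 6.59%. It ended before Mest and overlapped no member. With gaps of at most 5 kb its peaks in the window fell into pieces of 8, 1 and 2 peaks over 8.16, 0.0800 and 2.39 kb, which ranked at the top 14.6%, 93.7% and 11.7%. The stretches that did overlap a member (in Meg3, Mest and Kcnq1ot1) ranked between the top 40.4% and 88.9%. Copg2, which overlaps the 3′ end of Mest from the opposite strand, had a promoter peak of fold 6.82 outside the window.

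Plagl1 encodes a zinc finger transcription factor that restrains cell division and regulates other imprinted genes. No peak lay in its span (chr10:13090832-13131694) or within 50 kb, and the nearest summit was 102 kb from its start. The 228 kb stretch without a peak also held Hymai, the noncoding RNA that starts within Plagl1. The nearest peak outside the window, 60.6 kb beyond the span, had a fold of 16.4 from 37 fragments at the promoter of Ltv1, a ribosome assembly factor.

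Grb10 encodes an adaptor that binds the insulin and IGF1 receptors and limits growth. Its span of 107 kb (chr11:11930499-12037428) held no peak. The 2 peaks of its window lay 15.6 and 16.9 kb beyond the 3′ end with folds of 3.73 (1.93 to 6.70) and 3.87 (2.16 to 6.51). From there no peak was called for 3492 kb, the longest such stretch of chromosome 11 and the 26th longest of 122354. The stretch held 3 protein-coding genes, Grb10, Cobl (an actin nucleator) and Pom121l12. The window held 9.67 peaks per Mb, and chromosome 11 as a whole 79.4. Of chromosome 11 genes, 16.3% had a window density no higher than that of Grb10. Ddc, the dopa decarboxylase gene next to Grb10 that is imprinted in heart, had no promoter peak.

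Cdkn1c encodes p57, a cyclin-dependent kinase inhibitor that stops cell division during differentiation. No peak lay in its span (chr7:143458339-143461059) or within 50 kb, and the nearest summit was 56.2 kb from its start. The stretch of 166 kb without a peak also covered Slc22a18, an organic cation transporter gene, and Phlda2, a brake on placental growth. The related inhibitor genes Cdkn1a (p21) and Cdkn1b (p27), which are not imprinted, had promoter peaks with folds of up to 5.75 and 13.2.

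Kcnq1ot1 is the paternally expressed antisense RNA within Kcnq1 that silences Cdkn1c and its neighbours on the paternal chromosome, and its promoter lies in the imprinting control region of the domain. It carried 7 of the 8 peaks of its window within its span (chr7:143213111-143296547). The promoter peaks lay 906 and 1220 bp downstream of the start, with folds of 3.87 (2.16 to 6.51) from 12 fragments and 4.79 (2.55 to 8.40) from 10. Another peak followed 2.26 kb from the start (fold 5.65, 3.16 to 9.51), and 4 more lay 30.5 to 34.6 kb from it with folds of 3.58 to 5.35. The flank peak, also of fold 5.65, was in a Kcnq1 intron at chr7:143181011-143181103. All of them fall in introns of Kcnq1, a potassium channel gene, whose own promoter had no peak. The density, 43.6 per Mb, was 0.987 times that of chromosome 7, while the neighbouring Cdkn1c window had no peak.

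**Figure D3:**
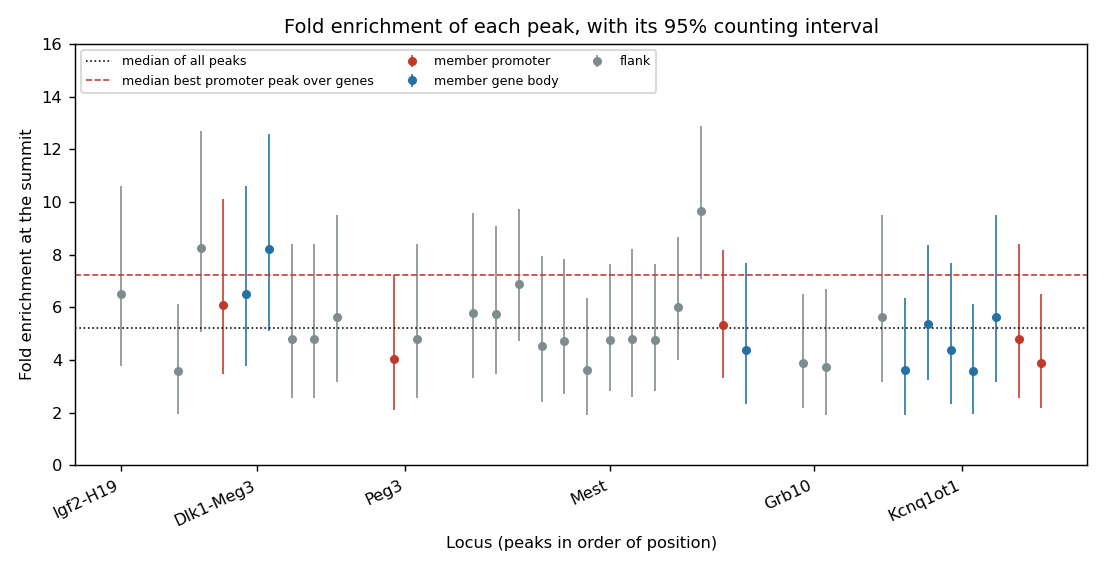
Points give the fold enrichment (vertical axis) of each of the 34 peaks, ordered by position within its locus (horizontal axis) and coloured by class, with bars for the 95% counting interval from the recovered fragments. Only the interval of the strongest Mest peak (7.06 to 12.9) lies clear of the list's median of 5.22, and every promoter peak of a member is below 7.24, the median of the best promoter peak over genes.

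CpG-rich promoters carried peaks far more often than CpG-poor ones over all genes, and most members without a peak were CpG-rich. Genes were split into deciles by the observed over expected CpG ratio within 500 bp of a start site, the highest value being taken where a gene had several. Promoter peaks were found at 5.59% of genes in the lowest decile and 79.4% in the highest. Igf2 (ratio 0.76), Mest (0.78) and Plagl1 (0.78) were in decile 8, where 69.0% of genes had a promoter peak, Dlk1 (0.83) and Cdkn1c (0.88) in decile 9 (76.1%) and Grb10 (1.07) in decile 10. Of these 6 genes only Mest had a promoter peak. H19 (0.48), Meg3 (0.51) and Kcnq1ot1 (0.46) were in decile 5 (37.7%) and Peg3 (0.60) in decile 6 (56.4%), and 3 of these 4 had one.

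**Figure D4:**
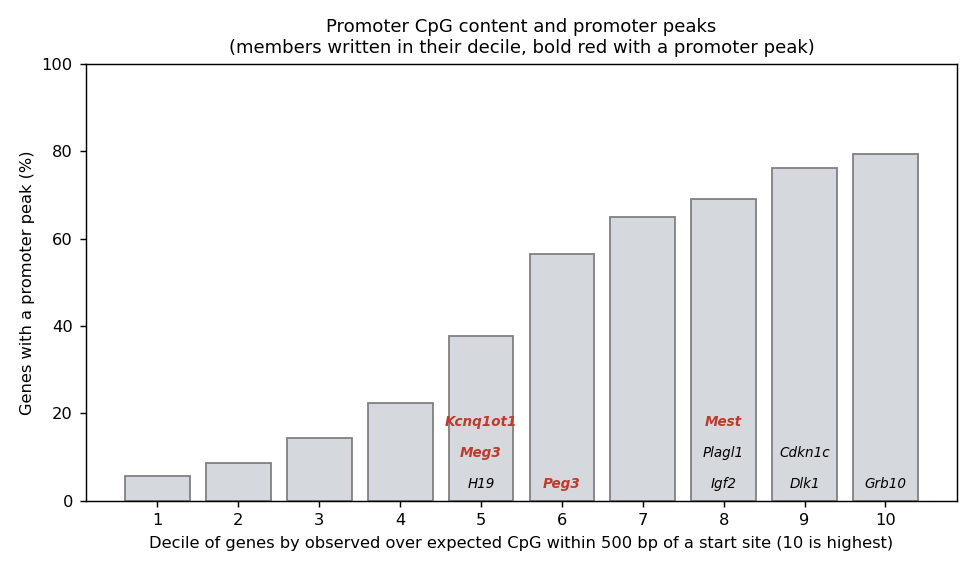
Bars give the share of all genes with a promoter peak (%) in each decile of promoter CpG content, from 5.59% to 79.4%, and members are written in their decile, in bold red where they have a promoter peak. In deciles 8 to 10 only Mest of the 6 members is in red.

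Letters of 4 motifs were searched on both strands of the peaks. They were GGNGGCAG, the core of the insulator protein CTCF, TGCCGC, bound by ZFP57 when methylated, CAGCTG, an E-box of MyoD, and TGANTCA, the AP-1 site. The first of these can hold the second when read on the other strand. In the promoter peaks, TGCCGC was found in the Kcnq1ot1 peak nearer the start, as it was in 0.912% of all peaks of like width, and GGNGGCAG in the Meg3 peak (2.69% of peaks of like width). The strongest Mest peak held TGCCGC (10.5%), and the Mrpl23 and Grb10 peaks held GGNGGCAG (7.85% and 3.56%). The strongest Dlk1 peak held GGNGGCAG (12.6%) and CAGCTG (19.7%). Over all 34 peaks CAGCTG was in 4 (11.8%) against 13.3% of the list, TGANTCA in 1 (2.94%) against 11.8%, GGNGGCAG in 5 (14.7%) against 8.14% and TGCCGC in 2 (5.88%) against 3.00%. RefSeq promoter windows were at hand for 8 members and 15 start sites. TGCCGC was in 6 of the 15, at Grb10, Igf2, Meg3, Mest and Plagl1, and in 11.6% of all 32851 windows. TGCCGC itself holds a CG, and neither these shares nor those by peak width were matched for CpG content. Grb10, Igf2, Mest and Plagl1 are in CpG deciles 8 to 10, and a gene can give several windows. The difference is therefore not read as a trait of the members. GGNGGCAG was in 2 of the 15 (12.6% of all windows), CAGCTG in 1 (16.3%) and TGANTCA in 0 (7.81%).

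Genes that act with the members had promoter peaks in a larger share, by count, without a test and without matching for promoter CpG content. Of 22 genes of the IGF and growth axis, 17 (77.3%) had a promoter peak, with a median best fold of 6.51. Over all genes, 69.0% had one in CpG decile 8 and 79.4% in decile 10. The list also holds chromatin genes such as Ctcf, Dnmt1 and Trim28. The highest were Cdkn1b (13.2), the maintenance methyltransferase Dnmt1 (11.7), Ctcf (10.4), the kinase Akt1 (9.10) and the PI3-kinase subunit Pik3ca (8.59). Igf1r, the receptor for IGF2, reached 8.24, and Igf2bp1, Igf2bp2 and Igf2bp3, which bind the Igf2 mRNA, reached 6.30, 7.76 and 7.58. The 5 without a promoter peak were the growth factor gene Igf1, the IGF2 clearance receptor Igf2r, the adaptor Irs2, the Dlk1 relative Dlk2 and Notch1. Zfp57 and Trim28, which keep imprints, had promoter peaks of fold 3.87 and 6.08.

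Of 57 other imprinted genes, 24 (42.1%) had a promoter peak, with a median best fold of 6.44. Igf2r is in this list and in the growth axis list. Whether the listed genes are imprinted in this tumor was not tested. The highest were Nap1l4 (12.3), Ube3a (12.1), Blcap (12.1), Ppp1r9a (10.7) and the pair Peg10 and Sgce (8.43 each), which share a promoter. Among the 10 list genes that lie in the members' windows, Usp29 and Copg2 had a promoter peak, and Ins2, Rtl1, Rian, Zim1, Kcnq1, Phlda2, Slc22a18 and Ddc had none. Nap1l4, just beyond the Cdkn1c window on the other side from Kcnq1ot1, had 6 promoter peaks.

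**Figure D5:**
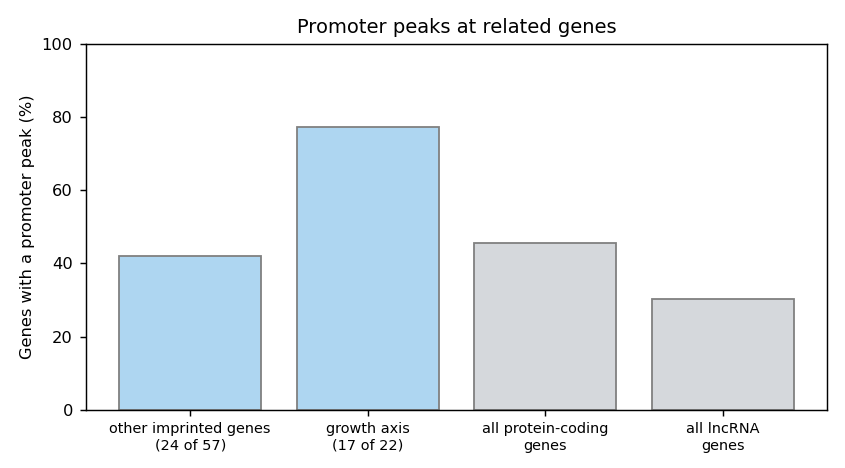
Bars give the share of genes with a promoter peak (%) in 2 lists and among all protein-coding and lncRNA genes. The other imprinted genes (42.1%) stand near the protein-coding genes (45.6%), and the growth axis list stands at 77.3%. The lists were not matched for promoter CpG content.

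The labelled tumor type was checked against promoter peaks of marker genes. A promoter peak was found at 1 of 14 myogenic markers (Myf6, fold 5.97), 1 of 14 endothelial markers (Cd34, 9.10), 1 of 8 leukocyte markers (Cd68, 5.91) and 2 of 6 fibroblast markers (Col3a1, 13.4, and Pdgfra, 5.35), beside 45.6% of all protein-coding genes. Myod1, Myog and Des had none. In the span and the 50 kb on either side, 10 of the 14 myogenic and 12 of the 14 endothelial markers had a peak. The highest count of each list was 36 at Myf6, 33 at Cd34, 24 at Cd68 and 39 at Col3a1. Myf5, whose window largely overlaps that of Myf6, had 29. Des had 15, Myod1 11, Mef2c 1, and Myog, Pax7, Msc and Actc1 had 0. The median over the myogenic markers was 10.5 peaks and over the endothelial markers 9.50, beside 7 over all genes. It was 2 over the leukocyte and 1 over the fibroblast markers. Neither measure set the myogenic markers clearly apart from the endothelial ones, so the check did not settle the tumor type. The paper reports several tumor types in MCP mice, and the label does not tie this library to one of its tumors. The part of the cell mixture in the members' peaks was not tested.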

How the data were processed

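The study's methods describe mapping of CUT&RUN reads to mm10, removal of reads in problematic regions and near Col19a1, and peak calling against IgG. They name bowtie and an early MACS, while the submitters' processing notes name BWA, SAMtools and MACS2, and the list has the MACS2 format. Whether the same reads were removed before this list was made is not known. The deposited fold enrichment is a ratio: the scaled fragment number of the summit plus 1, divided by the local background plus 1. The deposited −log10 p and −log10 q are the caller's own and served to filter peaks and recover fragments.

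Members and lists were chosen with earlier results of these data known. All 10 members, the genes of the lists in their windows, the 5 highest of each list and, where at most 5 had or lacked a peak, those were named. Gaps and neighbours were named after their values were seen. Genes and start sites of curated transcripts came from RefSeq for GRCm38 (31599 start sites), with an overlap of at least 1 bp. Fold and p were solved together for whole fragments: with 1 scale of 0.885, all peaks but 1 gave a whole number within 0.01, as did 6.25% of 400 values with the scale 3% off, and 90.7% of peaks had 1 solution. Intervals are exact Poisson (95%) on these fragments. The list states no depth. Python 3.11.15 scripts with pandas 2.3.3, scipy 1.17.1 and pysam 0.24.0, tested on simulated peaks, were used. Nespas could not be matched to the annotation.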

Additional observations from a re-analysis of the deposited data

How the results depend on the processing

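Counts depended on how strict the list was. At −log10 q of at least 5, 17 peaks and 2 members with a promoter peak (Meg3 and Mest) were left. The median fold was 5.80, and 37.9% of all protein-coding and 24.0% of all lncRNA genes kept a promoter peak. In the strongest 25% of the peaks, 5 peaks with a median fold of 8.21 were left. No member had a promoter peak (0, a promoter share of 0%), beside 29.3% of all protein-coding and 18.1% of all lncRNA genes. A flank of 25 kb gave 18 peaks with a promoter share of 27.8% (14.7% with 50 kb), and one of 100 kb gave 99 with a share of 5.05%, and it brought peaks of fold 16.4 and 12.3 into the Plagl1 and Cdkn1c windows and 11.7 into that of Igf2-H19. The filters on q keep the higher folds by construction. The other 32 values of counts, shares and medians stayed within their counting limits or 1.5 times the main count, among them 3 members with a promoter of 1 kb (without Meg3) and 3 with the start of the span alone (without Mest). Start sites of predicted transcripts, added after the data were seen, left both counts as they were. No paired analysis was possible because 1 library was analysed. A peak of under 7 fragments could not be called, so any weaker acetylation at the members without a peak was not detectable at this depth.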

Other observations

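Several imprinted genes lie within an intron of a host gene, and 5 such pairs, chosen after the values were seen, are set side by side here. Nnat, a neuronal membrane proteolipid gene, had no promoter peak, while its host Blcap had 6 with a fold of up to 12.1. Nap1l5, a retrogene, had none, while its host Herc3 had 4 (up to 8.13). The retrogenes Mcts2 and Zrsr1 had 1 each (4.36 and 5.30), and their hosts H13 and Commd1 had 2 and 5, stronger at their highest in both pairs. The noncoding RNA Peg13 went the other way, with 4 promoter peaks of up to 6.07 beside 1 of 3.12 at its host Trappc9.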
